A study of Mus musculus with 12 samples.

Results

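The G1 phase of the cell cycle, in which a cell commits to another round of division, was examined through 9 genes: the Myc genes Myc and Mycn, the D cyclins Ccnd1, Ccnd2 and Ccnd3, the E cyclins Ccne1 and Ccne2, and the cyclin-dependent kinase (CDK) inhibitors Cdkn1a and Cdkn1b. They were taken as every probe set that the platform annotation gives to exactly 1 of these symbols, which found 24 of the 45037 probe sets and 9 of the 18193 genes measured. RNA came from F9 cells, a mouse embryonal carcinoma line that retinoic acid (RA) drives towards an endoderm fate. Wild-type cells (WT) and cells labelled as RAR gamma knockout (KO), the receptor encoded by Rarg, were cultured for 24 h with 1 µM RA or with its ethanol vehicle. The 4 groups are called WT_vehicle, WT_RA, KO_vehicle and KO_RA, and each holds 3 whole-genome Affymetrix arrays. All 4 groups are 1 cell line in 1 serum-containing medium. How the receptor gene was disrupted and whether the knockout cells are 1 clone is not stated in the labels.

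Myc and Mycn encode transcription factors that bind DNA as partners of Max and raise genes of ribosome production, nucleotide synthesis and growth. The D cyclins switch on CDK4 and CDK6, and the E cyclins switch on CDK2; both kinase pairs phosphorylate the retinoblastoma protein and so release E2F factors, which turn on genes of DNA replication. Cdkn1a (p21) and Cdkn1b (p27) bind and restrain these kinases. Embryonal carcinoma cells divide fast with a short G1, and RA slows them as they differentiate.

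Values are MAS5 signals, linear intensities that the authors scaled so that each array has a trimmed mean of 500, and levels are compared only within a probe set. Changes are given as log2 differences of signal + 16, each with its standard error (SE) from a limma fit over all 12 arrays. A change is called where its p adjusted over all 45037 probe sets is under 0.05. Intervals are at 95%. The labels do not say whether replicate arrays are separate cultures, and a p-value here speaks only of the spread among these 12 arrays, which may be technical. The arrays fell into 3 sets by their recorded hybridization time, with 1 array of each group in every set. Each set is called a fluidics run here, on the shared time alone. Replicate 1 arrays were in run 2 and replicate 2 arrays in run 3. Replicate 3 arrays, whose titles carry letters in place of numbers, were in run 1. The adjusted p of a fit that also holds the run as a term, written as blocked by run, is printed beside a value where it changes the call. One array stood apart. KO_vehicle replicate 3 had a median signal of 143, against 71.3 to 94.9 on the other 11 arrays, and waited 316 min before its scan, against 13 to 59 min for 10 of the others and 238 min for KO_RA replicate 1. A background level was set at a signal of 88.3, the 95th percentile of all values of 86 probe sets for taste, vomeronasal and olfactory receptors, and 21 of the 24 probe sets had a mean above it. On KO_vehicle replicate 3 alone that percentile was 232, against 61.6 to 99.4 on the other 11 arrays. Dim signals on that array are therefore less certain. All 13 embryonal carcinoma markers, among them Pou5f1, Nanog and Sox2, were above background, and 9 of 10 fibroblast markers were below it. Rarg itself was not lower in the arrays labelled KO: the difference was 0.16 in vehicle and 0.12 in RA (adjusted p = 0.733 and 0.885). Whether its probes fall in the disrupted stretch is not stated, and the signal therefore does not check the genotype.

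The comparison with vehicle in WT cells addresses what RA did to these genes within a day. By limma, 2 of the 9 genes fell, Myc and Ccnd1, and none rose; 0.824% of all genes were called. Blocked by run, Ccnd3 fell as well, with 3.35% of all genes called. At an unadjusted p under 0.05 there were 5 of 9. In KO cells 0 of 9 were called by limma (0.148% of all genes; 2 of 9 at an unadjusted p under 0.05), and blocked by run 2 fell, Myc and Mycn (0.495% of all genes). A test of whether the RA change differed between the genotypes called 0 of 9 by limma (0% of all genes; 2 of 9, Myc and Ccnd3, at an unadjusted p under 0.05), and 0 of 9 blocked by run (0.0879%). Of all 18193 genes, 1633, 1180 and 865 had an unadjusted p under 0.05 for RA in WT, RA in KO and the difference. Of the 10693 genes above background these were 1329, 633 and 391. Between genotypes in vehicle, Ccnd2 and Ccnd3 were lower in KO cells (6.42% of all genes called, 13.5% blocked by run). In RA, Ccnd2 was lower and Myc higher in KO cells (7.55%), and blocked by run Ccne2 was lower too (14.5%). Each of the 9 genes was above the background level by its brightest probe set, and calls were more frequent among such genes. Of 10693 genes above it, 408 were higher and 721 lower in KO cells in vehicle (1000 and 1395 blocked by run). In RA 585 were higher and 729 lower (1214 and 1339 blocked by run). With RA, 84 of them rose and 61 fell in WT cells (317 and 282 blocked by run). In KO cells 25 rose and 2 fell (74 and 16 blocked by run). Comparisons that share a group share its arrays and are therefore not independent of each other.

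**Figure D1:**
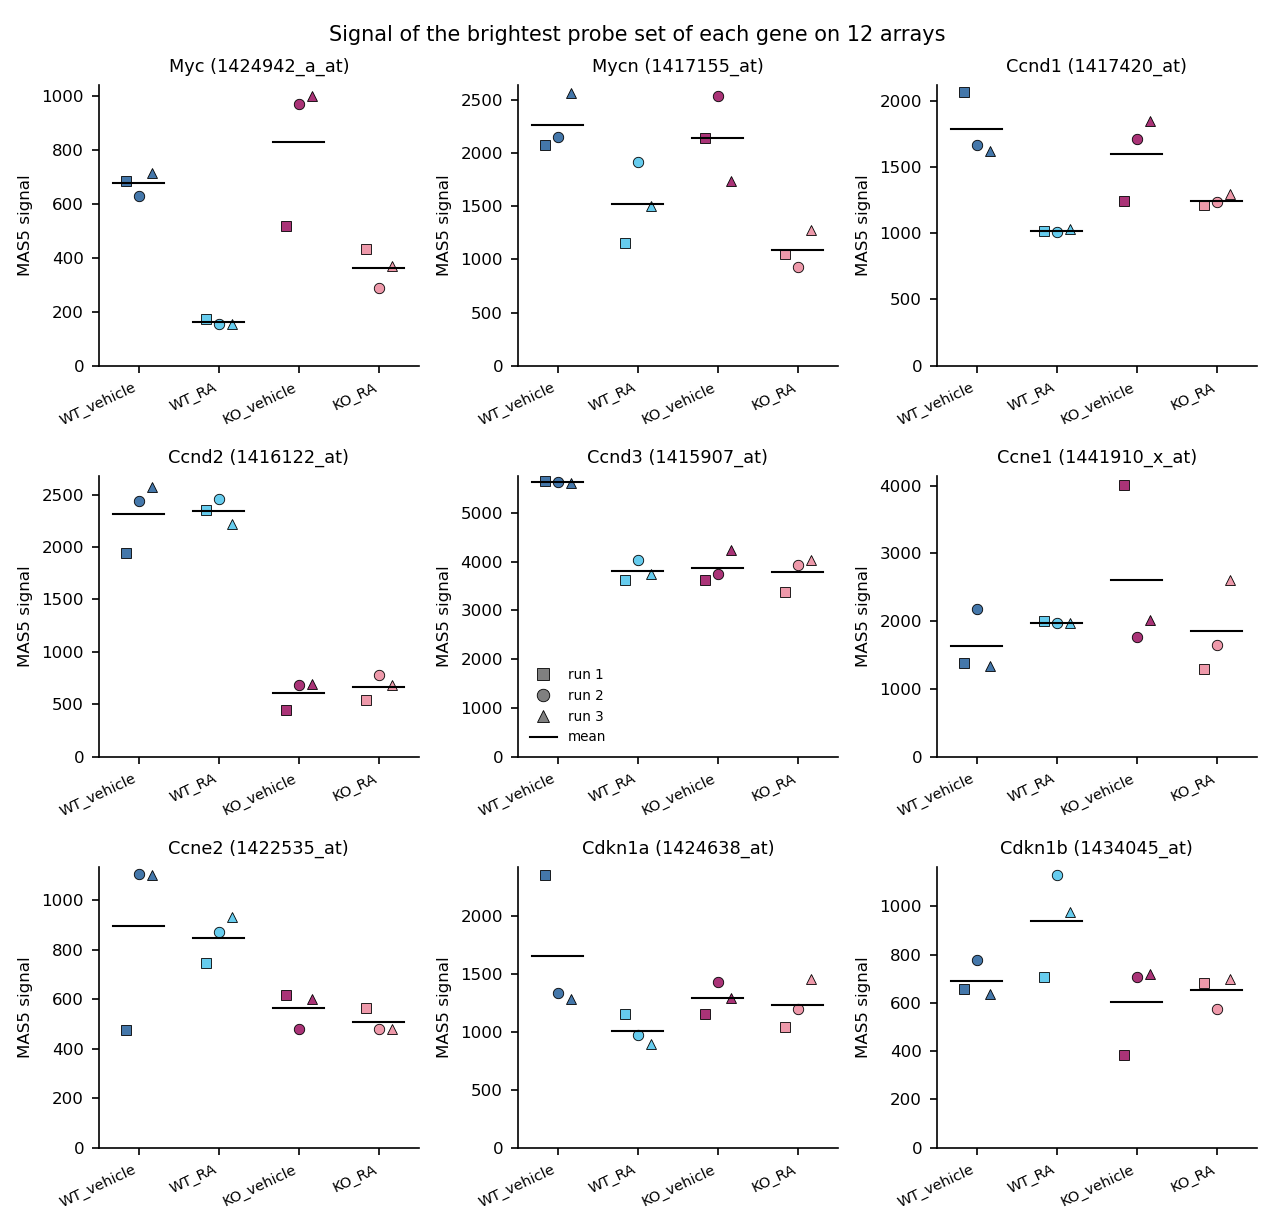
MAS5 signal (linear axis from 0) of the brightest probe set of each of the 9 genes on all 12 arrays, with 3 arrays per group, marker shape for the fluidics run and a bar for the group mean. Myc separates the RA arrays from the vehicle arrays in both genotypes, Ccnd2 separates the genotypes in both media, and Ccnd3 is high in WT_vehicle alone.

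Myc, measured by 1 probe set (1424942_a_at), had the largest RA change of the 9 in both genotypes. Its signals in replicates 1, 2 and 3 were 627, 713 and 684 in WT_vehicle, 152, 153 and 174 in WT_RA, 967, 998 and 518 in KO_vehicle, and 289, 368 and 430.1 in KO_RA. All WT_RA arrays lay below every other array, and the 3 KO_RA arrays lay above them and below all vehicle arrays. RA lowered Myc 3.93-fold in WT cells (log2 change -1.97, SE 0.249, limma adjusted p = 0.000625), with -1.88, -1.93 and -2.11 in runs 1, 2 and 3. This call stood when any 1 of the 12 arrays was left out.

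In KO cells the Myc change with RA was -1.12 (SE 0.249, adjusted p = 0.186). It was -0.26 in run 1 and -1.69 and -1.40 in runs 2 and 3. The run 1 value rests on KO_vehicle replicate 3, the array with the high median, which gave the lowest Myc of its group. Without that array the change was -1.42 (adjusted p = 0.0171). This was the only call among the 12 fits that each left out 1 array, whose adjusted p reached 0.777. Blocked by run the fall passed (adjusted p = 0.0254). The RA change in KO minus that in WT was 0.86 (interval 0.11 to 1.60, adjusted p = 0.978).

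In RA medium Myc was 2.13-fold higher in KO than in WT cells (log2 difference 1.09, SE 0.249, adjusted p = 0.0145), and the difference lay between 0.86 and 1.23 in the 3 runs. Leaving out WT_RA replicate 1 or 2, or KO_RA replicate 2 or 3, raised the adjusted p to between 0.0537 and 0.0645. In vehicle the genotypes overlapped in Myc signal, with a difference of 0.23 (adjusted p = 0.699). The order of the group means was thus KO_vehicle, WT_vehicle, KO_RA and WT_RA, and only the first pair overlapped. In RNA from whole cultures, a smaller number of Myc-expressing cells and less Myc RNA per cell cannot be told apart.

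**Figure D2:**
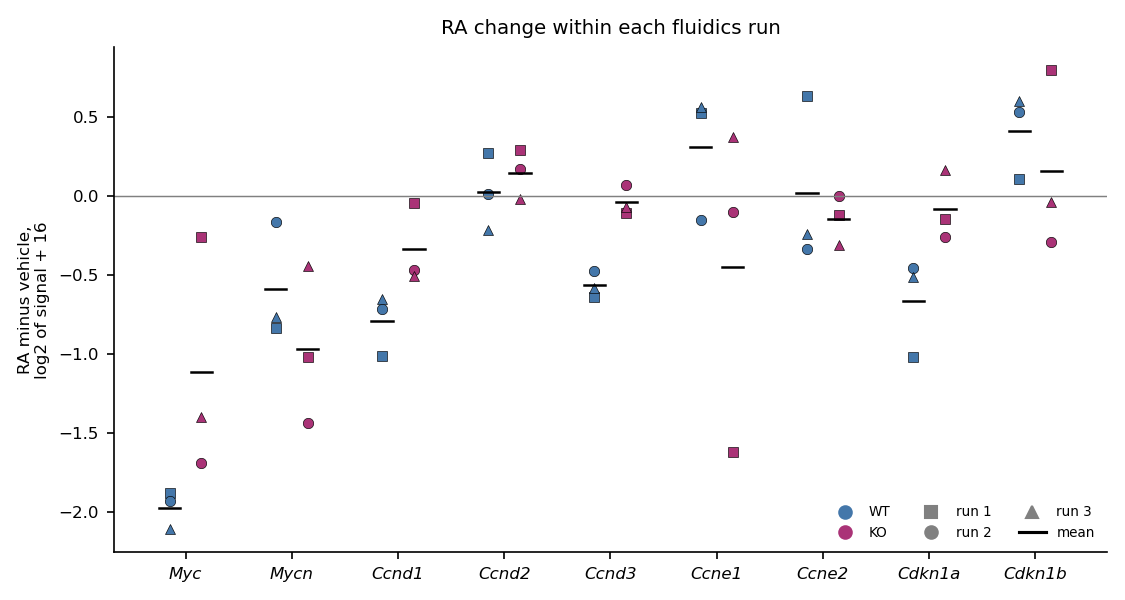
RA minus vehicle change (log2 of signal + 16) of the brightest probe set of each gene, taken between the WT arrays (blue) and between the KO arrays (purple) of each fluidics run; bars are means of the 3 runs. Myc, Mycn, Ccnd1, Ccnd3 and Cdkn1a lie below 0 in WT cells in every run, while Ccne1 and Cdkn1b scatter on both sides of 0 in KO cells.

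Mycn is the paralog that is prominent in embryonic and neural progenitors. Its lead probe set (1417155_at) gave 2153, 2567 and 2078 in WT_vehicle, 1918, 1505 and 1157 in WT_RA, 2544, 1738 and 2144 in KO_vehicle, and 931, 1277 and 1048 in KO_RA. The KO_RA arrays lay below all vehicle arrays of both genotypes, and the WT_RA arrays, at 1157 to 1918, overlapped both KO groups. The change with RA was -0.97 in KO cells (SE 0.196, adjusted p = 0.0994, 0.00467 blocked by run and 0.110 when KO_vehicle replicate 3 was left out as well). In WT cells it was -0.59 (adjusted p = 0.387), with -0.84, -0.17 and -0.76 in runs 1, 2 and 3. The other probe set above background (1425922_a_at) gave 421, 412 and 341 in WT_vehicle, 334, 375 and 343 in WT_RA, 545, 515 and 443 in KO_vehicle, and 233, 303 and 282 in KO_RA. It too had its lowest 3 values in KO_RA, a change of -0.84 (adjusted p = 0.308), and gave -0.15 in WT cells (adjusted p = 0.982). The RA change of the lead probe set in KO minus that in WT was -0.38 (interval -0.96 to 0.21), and all neighbours in the order WT_vehicle, KO_vehicle, WT_RA and KO_RA overlapped. The remaining probe set (1425923_at) was below background.

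The window around the start of Mycn is shown because it held a motif that few windows hold. RefSeq promoter windows, 250 bases before to 50 after an annotated start on build GRCm38.p6, were held for 5 of the 9 genes (7 windows: Mycn, Ccnd3 with 2 starts, Ccne1, Cdkn1a with 2 starts, and Cdkn1b). Each was searched on both strands for the E-box CACGTG bound by Myc and Max, the E2F motif (TTTGGCGC, TTTCGCGC or TTTCCCGC), the GC box GGGCGG, the TATA box TATAAA, the nuclear receptor half-site AGGTCA and the CCAAT box. In all 32851 windows of this length these were present in 7.15%, 1.84%, 35.7%, 13.6%, 16.3% and 37.4%. Mycn held 3 E2F matches, at -183 and -168 in the gene's direction and at -179 on the other strand, and 2 GC boxes at -133 and -63. The E2F matches at -183 and -179 overlap. Positions count from the start, and capitals mark the matches.
Mycn, chr12:12941787-12942086, minus strand: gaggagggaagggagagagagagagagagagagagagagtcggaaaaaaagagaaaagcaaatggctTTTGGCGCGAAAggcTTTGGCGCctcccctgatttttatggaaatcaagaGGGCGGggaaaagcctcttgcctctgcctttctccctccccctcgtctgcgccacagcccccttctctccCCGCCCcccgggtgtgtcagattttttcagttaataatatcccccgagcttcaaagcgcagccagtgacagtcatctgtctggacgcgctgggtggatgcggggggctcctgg
A match of letters is a description of the window and was not tested as a binding site.

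Ccnd1 (cyclin D1), the D cyclin best known as a target of growth factor signals, fell with RA in WT cells. The lead probe set (1417420_at) gave 1669, 1624 and 2069.6 in WT_vehicle, 1012, 1029 and 1019.8 in WT_RA, 1709, 1850.2 and 1245 in KO_vehicle, and 1232, 1298 and 1209 in KO_RA. The WT_RA arrays were the lowest 3 of the 12 and lay close together. The change in WT cells was -0.79 (SE 0.165, limma adjusted p = 0.0395, 0.00283 blocked by run), with -1.01, -0.71 and -0.65 in runs 1, 2 and 3. The call was close to the threshold: leaving out any of the 6 WT arrays, KO_vehicle replicate 1, or KO_RA replicate 1 or 2 raised the adjusted p, to between 0.0643 and 0.212, while the change itself stayed between -0.86 and -0.68.

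The other Ccnd1 probe sets were lower in RA as well. 1417419_at gave 1449, 1079 and 1669.8 in WT_vehicle, 635, 808 and 806 in WT_RA, 1354, 1253 and 1279 in KO_vehicle, and 1239.5, 824 and 840.2 in KO_RA. Its change in WT cells was -0.87 (adjusted p = 0.0673, 0.00436 blocked by run). 1448698_at gave -0.41 in WT cells (adjusted p = 0.785), and its WT groups overlapped. In KO cells the 3 probe sets gave -0.44 to -0.33 with RA, and none was called; the lead's change was -0.34 (interval -0.69 to 0.01). KO minus WT differences of the lead were -0.17 in vehicle (adjusted p = 0.671) and 0.28 in RA (adjusted p = 0.485), although the KO_RA arrays all lay above the WT_RA arrays.

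Ccnd2 (cyclin D2) differed between the genotypes and was not called with RA. Its lead probe set (1416122_at) gave 2441, 2576 and 1943 in WT_vehicle, 2461, 2217 and 2349.9 in WT_RA, 688, 689 and 441 in KO_vehicle, and 778, 679 and 544 in KO_RA. The lowest WT array, at 1943, lay far above the highest KO array, at 778, and the media overlapped within each genotype. Ccnd2 was 3.80-fold lower in KO cells in vehicle (log2 difference -1.93, SE 0.193, limma adjusted p = 1.42e-05) and 3.48-fold lower in RA (-1.80, SE 0.193, adjusted p = 2.19e-05). Runs 1, 2 and 3 gave differences of -2.10, -1.80 and -1.88 for vehicle and of -2.08, -1.64 and -1.68 for RA. Both calls stood without any 1 of the 12 arrays.

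The gene has 7 probe sets, and 6 of them were above background. All 6 were lower in KO cells in both media, by -2.26 to -1.52 in vehicle, where 6 were called, and by -1.80 to -1.03 in RA, where 5 were called. The exception in RA was 1416123_at, the dimmest of the 6, with 237, 179.9 and 154 in WT_vehicle, 158, 183 and 205 in WT_RA, 77.1, 49.7 and 28.6 in KO_vehicle, and 157, 57.0 and 54.7 in KO_RA. Its KO_RA replicate 1 array lay just below the lowest WT_RA array, and its difference was -1.03 (adjusted p = 0.239). In vehicle its call stood in 5 of the 12 fits that each left out 1 array. The seventh probe set, 1416124_at, lay below the background level on average but had the same order, with all KO arrays below all WT arrays. The RA change of the lead was 0.023 in WT cells (interval -0.39 to 0.43) and 0.15 in KO cells (interval -0.26 to 0.56). With RA, all 6 were higher in KO cells (0.054 to 0.57), and 3 higher and 3 lower in WT cells, with none called. The second brightest, 1430127_a_at, rose in KO cells without overlap (0.50, adjusted p = 0.682). Its RA change in KO minus that in WT was 0.66 (interval 0.14 to 1.17, adjusted p = 0.978).

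**Figure D3:**
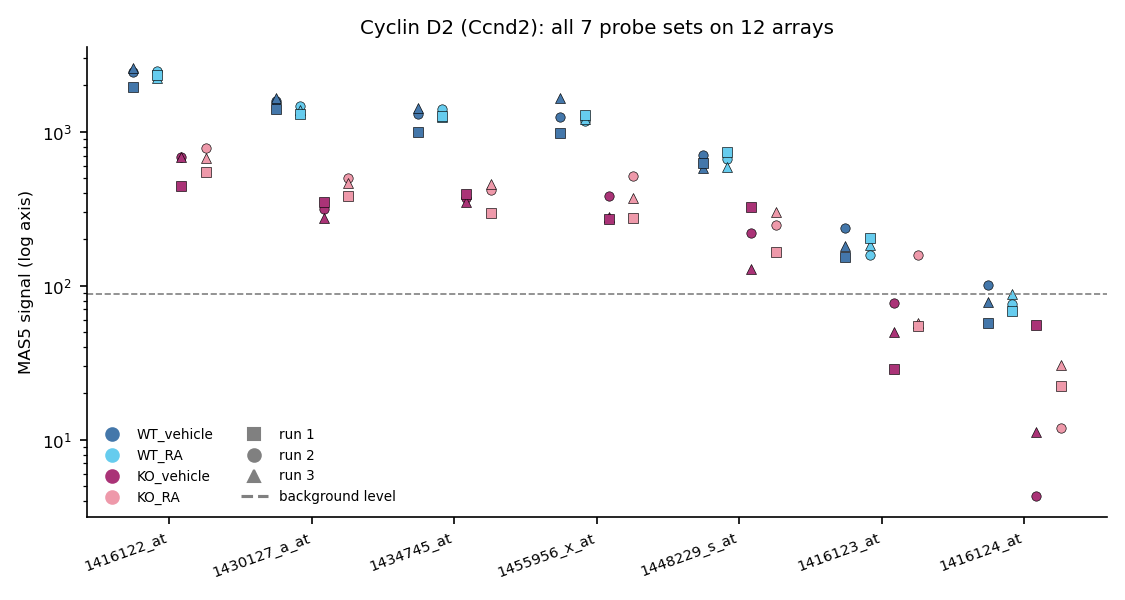
MAS5 signal (log axis) of the 7 Ccnd2 probe sets on all 12 arrays, coloured by group, with marker shape for the fluidics run and a dashed line at the background level of 88.3. In each probe set the KO arrays lie below the WT arrays of the same medium, with the narrowest gap at 1416123_at in RA.

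Markers of endoderm moved with this genotype difference. Of 16 endoderm markers, 9 were called lower in KO cells in vehicle and 9 in RA, and none was called higher. Blocked by run 13 were lower in each. Above 0 were 0 of the 16 in vehicle and 2 in RA. Of the 10693 genes above background, 721 were lower and 408 higher in vehicle, and 729 and 585 in RA. Blocked by run these were 1395 and 1000 in vehicle, and 1339 and 1214 in RA. The markers had medians of -2.04 and -2.0, and all genes above background had -0.0012 and -0.02. Pdgfra, a growth factor receptor of early endoderm, differed by -3.94 in vehicle (adjusted p = 4.17e-05) and Gata4, an endoderm transcription factor, by -2.73 (adjusted p = 0.000364). The summed signal of the 16 markers was 90521 to 94643 in WT_vehicle and 79034 to 102820 in WT_RA, against 12507 to 39334 in KO_vehicle and 14238 to 42793 in KO_RA. Thbd, Afp and Ttr were below background. The part of these markers in the Ccnd2 difference was not tested.

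Ccnd3 (cyclin D3) stood high in WT_vehicle and at 1 lower level elsewhere. The lead probe set (1415907_at) gave 5633, 5625 and 5656 in WT_vehicle, 4045, 3753 and 3629 in WT_RA, 3752, 4235 and 3632 in KO_vehicle, and 3937, 4037 and 3375 in KO_RA. The WT_vehicle arrays lay close together at 5625 to 5656 and above every other array, of which the highest was KO_vehicle replicate 2 at 4235, while the other 3 groups overlapped. Ccnd3 was 1.46-fold lower in KO than in WT cells in vehicle (-0.54, SE 0.128, limma adjusted p = 0.0205), with -0.64, -0.58 and -0.41 in runs 1, 2 and 3. Leaving out WT_vehicle replicate 1 or 2, or KO_vehicle replicate 1 or 3, raised the adjusted p to between 0.053 and 0.0737. The call was also lost in a fit with the chip lot as a block. In RA the genotypes differed by -0.013 (interval -0.28 to 0.26).

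The change of Ccnd3 with RA was -0.57 in WT cells (SE 0.128, adjusted p = 0.0691, 0.0042 blocked by run), with -0.64, -0.48 and -0.58 in the runs. In KO cells it was -0.035 (interval -0.30 to 0.24). The RA change in KO minus that in WT was 0.53, 0.55 and 0.51 in runs 1, 2 and 3 (SE 0.181, adjusted p = 0.978, 0.461 blocked by run). The runs were close to each other, but the value did not pass among all probe sets. A dimmer probe set (1444323_at) gave 155, 266 and 219 in WT_vehicle, 121, 115 and 134 in WT_RA, 98.0, 128 and 160.3 in KO_vehicle, and 72.2, 103 and 109 in KO_RA. WT_vehicle was again the highest group on average, with an RA change of -0.69 in WT cells (adjusted p = 0.785). The remaining probe set (1438805_at) was below background.

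The 2 annotated Ccnd3 starts are shown because Ccnd3 is the member called between genotypes in vehicle for which windows were held. The upstream window held 2 GC boxes, at -152 and -18, and 1 receptor half-site at -97, all on the other strand. The downstream window held 2 GC boxes, at -46 and 12, and a CCAAT box at -108. Capitals mark these matches, and neither window held an E-box or an E2F match.
Ccnd3, upstream start, chr17:47504801-47505100, plus strand: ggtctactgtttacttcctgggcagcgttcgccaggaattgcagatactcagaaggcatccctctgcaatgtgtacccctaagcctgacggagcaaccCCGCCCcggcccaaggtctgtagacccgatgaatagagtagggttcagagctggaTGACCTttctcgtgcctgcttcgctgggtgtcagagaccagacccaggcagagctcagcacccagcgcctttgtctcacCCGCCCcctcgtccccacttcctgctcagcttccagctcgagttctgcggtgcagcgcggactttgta
Ccnd3, downstream start, chr17:47593217-47593516, plus strand: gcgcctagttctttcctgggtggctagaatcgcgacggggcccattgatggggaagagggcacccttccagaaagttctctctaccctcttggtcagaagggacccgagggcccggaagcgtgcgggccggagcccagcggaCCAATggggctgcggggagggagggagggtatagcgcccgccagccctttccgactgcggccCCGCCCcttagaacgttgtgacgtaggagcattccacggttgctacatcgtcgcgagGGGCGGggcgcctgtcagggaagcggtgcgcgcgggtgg
Of the other windows, that of Ccne1 held 4 GC boxes, 1 of the Cdkn1a windows held 2, and that of Cdkn1b held 1 GC box and 3 CCAAT boxes.

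Ccne1 (cyclin E1) was not called in any comparison. Its lead probe set (1441910_x_at) gave 2186, 1332 and 1379 in WT_vehicle, 1969.9, 1972 and 1996 in WT_RA, 1771, 2015 and 4014 in KO_vehicle, and 1649, 2614 and 1292 in KO_RA. The 3 WT_RA arrays lay close together, whereas KO_vehicle replicate 3, at 4014, stood above every other array, of which the highest was KO_RA replicate 2 at 2614. The RA change was 0.31 in WT cells (interval -0.28 to 0.91, adjusted p = 0.950) and -0.45 in KO cells (interval -1.05 to 0.15, adjusted p = 0.888). The other probe set (1416492_at) gave 1288, 1319 and 1388 in WT_vehicle, 1130.1, 1011 and 1086 in WT_RA, 1142, 1182 and 2209 in KO_vehicle, and 1336, 1228 and 1578 in KO_RA. Its WT arrays were lower in RA without overlap, a change of -0.30 (adjusted p = 0.908), so the 2 probe sets differed in sign in WT cells. KO_vehicle replicate 3 was again the highest array of the 12.

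Ccne2 (cyclin E2), with 1 probe set (1422535_at), gave 1105, 1103 and 474 in WT_vehicle, 871, 931 and 746 in WT_RA, 480.0, 599 and 615 in KO_vehicle, and 479, 479 and 565 in KO_RA. The KO arrays lay below the WT arrays apart from WT_vehicle replicate 3, which at 474 was the lowest of the 12. The KO minus WT difference was -0.56 in vehicle (SE 0.261, adjusted p = 0.301) and -0.72 in RA (adjusted p = 0.152, 0.0378 blocked by run). Without WT_vehicle replicate 3 these became -0.96 (adjusted p = 0.0066) and -0.72 (adjusted p = 0.0135). In each comparison this was the only call among the 12 fits that each left out 1 array. The adjusted p of these fits reached 0.626 in vehicle and 0.400 in RA. The RA change of Ccne2 was 0.0195 in WT cells (interval -0.53 to 0.57) and -0.14 in KO cells (interval -0.69 to 0.41).

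Cdkn1a (p21), a CDK inhibitor and p53 target, was not called in any comparison. Its lead probe set (1424638_at) gave 1336, 1285 and 2355 in WT_vehicle, 969.6, 896 and 1156 in WT_RA, 1434, 1293 and 1155 in KO_vehicle, and 1196, 1454 and 1041 in KO_RA. WT_vehicle replicate 3, at 2355, stood above every other array, and the remaining 11 lay between 896 and 1454. The change with RA in WT cells was -0.66 (interval -1.11 to -0.21, adjusted p = 0.354, 0.0678 blocked by run), with -1.02, -0.46 and -0.51 in runs 1, 2 and 3, and without WT_vehicle replicate 3 it was -0.38. In KO cells it was -0.079 (interval -0.53 to 0.37). The other probe set (1421679_a_at) gave 1155, 872 and 878 in WT_vehicle, 689.9, 662 and 837 in WT_RA, 1005, 1063 and 529 in KO_vehicle, and 982, 1027 and 662 in KO_RA. It gave -0.40 in WT cells without overlap (adjusted p = 0.881) and 0.078 in KO cells.

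Cdkn1b (p27), the inhibitor that accumulates in resting cells, gave 776, 637 and 658 in WT_vehicle, 1128, 975 and 709 in WT_RA, 707, 720.0 and 385 in KO_vehicle, and 576, 699.6 and 682 in KO_RA with its lead probe set (1434045_at). The 2 highest arrays of the 12 were WT_RA replicates 1 and 2, and the lowest was KO_vehicle replicate 3. The change with RA was 0.41 in WT cells (interval -0.09 to 0.91, adjusted p = 0.850), with 0.11, 0.53 and 0.60 in runs 1, 2 and 3. In KO cells it was 0.16 (interval -0.34 to 0.65), with 0.80, -0.29 and -0.041 in the runs. The KO minus WT difference in RA was -0.49 (interval -0.99 to 0.01, adjusted p = 0.346). The second probe set (1419497_at) spread from 49.0 to 624 and was called in no comparison.

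**Figure D4:**
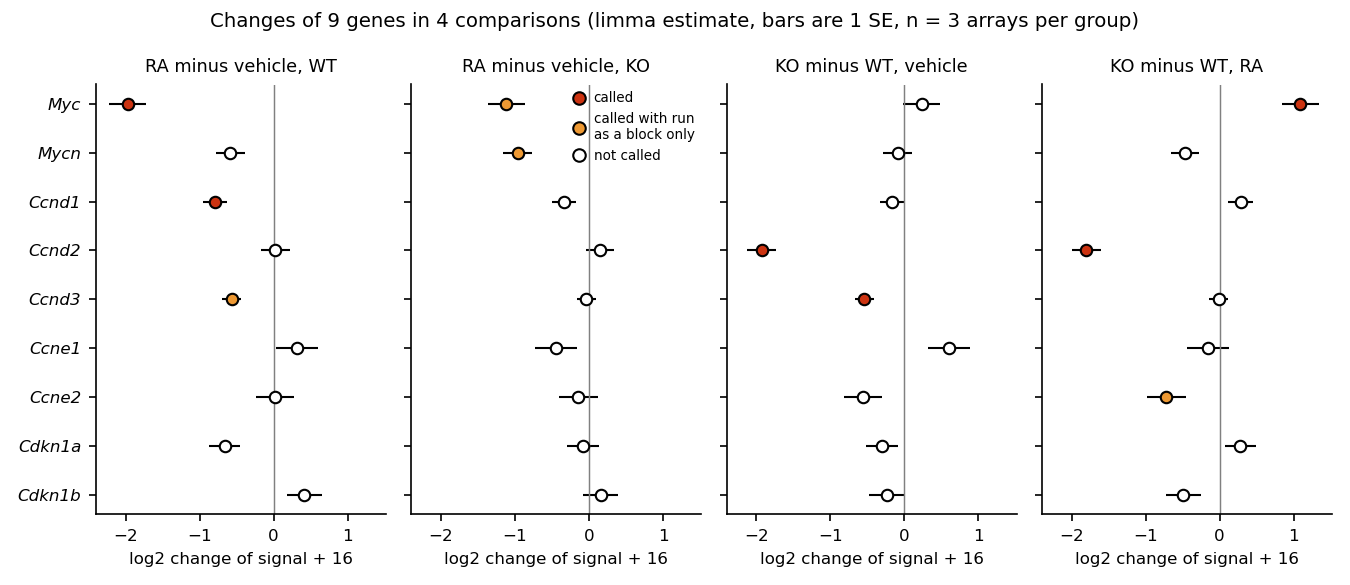
Log2 change of signal + 16 of the lead probe set of each of the 9 genes in 4 comparisons, with bars of 1 SE from the limma fit (n = 3 arrays per group); red points passed the test, orange points passed blocked by run only, and open points passed neither. Myc, Mycn and Ccnd1 lie left of 0 in both RA panels, and Ccnd2 lies far to the left in both genotype panels.

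Genes around the 9 were described by lists. Among 31 measured growth genes that Myc proteins are known to bind, RA lowered 3 in WT cells and raised none, with 29 of 31 below 0 and a median of -0.38, against 0.04 over all genes above background. Blocked by run 12 were lower. Of the 10693 genes above background, 61 fell and 84 rose with RA in WT cells (282 and 317 blocked by run). Nolc1, a nucleolar chaperone, went from 3589 ± 188 (SD, n = 3) in WT_vehicle to 1895 ± 223 in WT_RA, a change of -0.92 (SE 0.137, limma adjusted p = 0.00292). Srm, spermidine synthase, changed by -0.93 (adjusted p = 0.00443) and Odc1, the first enzyme of polyamine synthesis, by -0.81 (adjusted p = 0.0103). In KO cells 0 of 31 were called by limma (4 at an unadjusted p under 0.05). There 27 of 31 were below 0, with a median of -0.13, against 0.03 over all genes above background.

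In RA medium 15 of these 31 were higher and 1 lower in KO than in WT cells (18 and 1 blocked by run). Of the 10693 genes above background, 585 were higher and 729 lower (1214 and 1339 blocked by run). The list median was 0.51, against -0.02 over all genes above background. Hk2, a hexokinase of glycolysis, differed by 1.06 (SE 0.198, adjusted p = 0.00322), Nme1, a nucleoside diphosphate kinase, by 0.87 (adjusted p = 0.000827) and Rrs1, a ribosome assembly factor, by 0.84 (adjusted p = 0.00201). Dkc1, a subunit of the RNA pseudouridine synthase complex, was lower, by -1.29 (adjusted p = 0.000797). In vehicle 3 were higher in KO cells, Npm1, a nucleolar chaperone, by 0.86 (adjusted p = 0.00561), Ubtf, a factor of ribosomal RNA transcription, by 0.55 (adjusted p = 0.0454) and Gnl3, a nucleolar GTPase, by 0.62 (adjusted p = 0.0466), with a median of 0.28. Blocked by run 10 were higher and 1 lower in vehicle. Over all genes above background, 408 were higher and 721 lower in vehicle (1000 and 1395 blocked by run). The list shares Nolc1 and Odc1 with the genes most like Myc below and is no separate measurement of them.

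**Figure D5:**
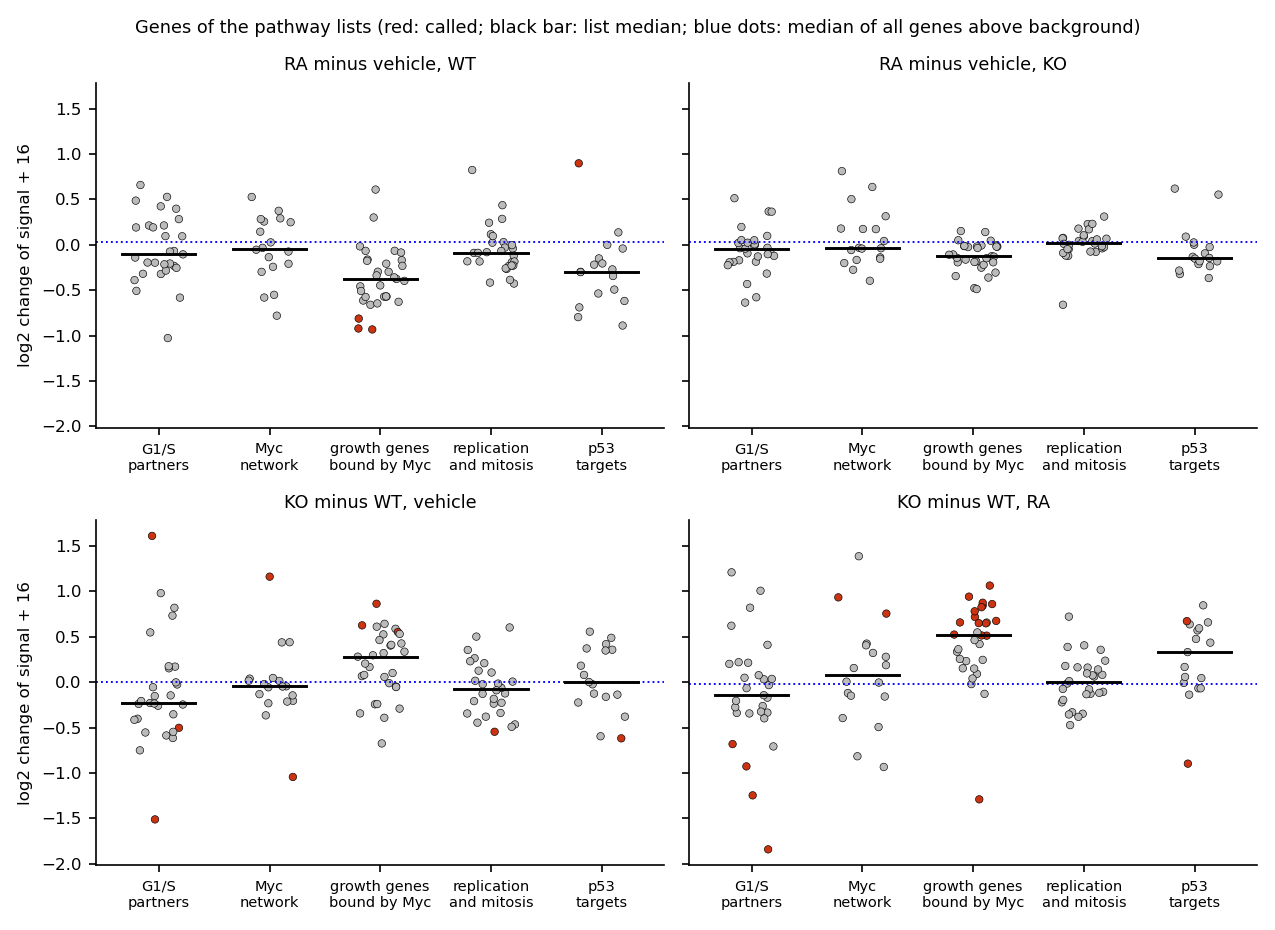
Log2 change of signal + 16 of each gene in 5 lists for 4 comparisons, 1 point per gene; red points passed the test, black bars are list medians and the dotted line is the median of all genes above background. The growth genes bound by Myc lie lowest in WT cells with RA (median -0.38) and highest for KO against WT in RA (median 0.51).

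Of 18 measured genes of the Myc network (Max, its other partners and cofactors), limma called none with RA in either genotype (2 in WT and 1 in KO cells at an unadjusted p under 0.05). Blocked by run, 2 fell with RA in WT cells: Wdr5, a chromatin cofactor of Myc, by -0.55 (adjusted p = 0.0934, 0.0044 blocked by run) and Ruvbl2, an ATPase of chromatin remodelling complexes, by -0.58 (adjusted p = 0.309, 0.00529 blocked by run). Mnt, a Max partner that represses Myc targets, was higher in KO cells in vehicle, at 1038 ± 38.0 against 457 ± 48.6 (1.16, SE 0.178, adjusted p = 0.000869), and in RA (0.93, adjusted p = 0.00387). Mxd4, another repressor of this family, was lower in KO cells in vehicle (-1.04, adjusted p = 0.0377), and Mlx, a Max-like protein, was higher in RA (0.75, adjusted p = 0.0256). In all 1 was higher and 1 lower in vehicle, and 2 were higher and 0 lower in RA. Of the 10693 genes above background 408 were higher and 721 lower in vehicle, and 585 and 729 in RA. The share called in the list was close to these. Over all genes above background blocked by run, 282 fell and 317 rose with RA in WT cells. Between genotypes 1000 were higher and 1395 lower in vehicle, and 1214 and 1339 in RA. The list counts blocked by run were 2 higher and 1 lower in vehicle, and 4 higher and 1 lower in RA. Max itself was among the latter 4, with a difference of 1.39 (adjusted p = 0.607, 0.00497 blocked by run). Its signals spread widely, from 25.4 to 517 in WT_RA and from 118 to 1263 in KO_RA, and the difference is therefore uncertain in size.

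Of 29 other G1 and S phase regulators, limma called none with RA in either genotype (1 in each at an unadjusted p under 0.05). Blocked by run Cdkn2d (p19), an inhibitor of CDK4 and CDK6, rose in WT cells (0.53, adjusted p = 0.298, 0.0476 blocked by run). In vehicle 1 was higher and 2 were lower in KO cells, and blocked by run 3 were higher and 7 lower. Among all 10693 genes above background 408 were higher and 721 lower (1000 and 1395 blocked by run). By limma the share called in the list was close to that. Cdkn1c (p57), another inhibitor of the p21 family, was higher at 268 ± 61.8 against 79.7 ± 35.6 (1.61, SE 0.362, adjusted p = 0.0155), where the WT mean is under the background level. E2f2, an activating E2F factor, was lower at 145 ± 52.0 against 439 ± 130 (-1.51, adjusted p = 0.0177), and Cdk4, the kinase partner of D cyclins, was lower by -0.50 (adjusted p = 0.0397). In RA 4 were lower and 0 higher (5 and 0 blocked by run), against 729 lower and 585 higher among all genes above background (1339 and 1214 blocked by run). Cdkn2c, another inhibitor of CDK4 and CDK6, was lower in KO cells (-1.84, adjusted p = 0.00761), at a mean of 71.0 against 269, where the KO mean is under the background level and the difference is therefore uncertain in size. Also lower were Tfdp2, a partner of E2F proteins, by -0.93 (adjusted p = 0.0098) and Cdk2, the partner of the E cyclins, by -0.68 (adjusted p = 0.0236).

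Of 28 measured replication and mitosis genes, limma called none with RA in either genotype (0 in each also at an unadjusted p under 0.05), with medians of -0.09 in WT and 0.02 in KO cells. Rrm1, a subunit of ribonucleotide reductase, was lower in KO cells in vehicle (-0.55, adjusted p = 0.0386), and limma called none in RA (6 at an unadjusted p under 0.05). Blocked by run, 1 was higher and 6 lower in vehicle, against 1000 and 1395 of the 10693 genes above background. In RA 2 were higher and 2 lower blocked by run, among them Cdc6, a loader of the replicative helicase, at 0.72 (adjusted p = 0.0894, 0.000309 blocked by run) and Rrm1 at -0.47 (adjusted p = 0.0733, 0.00802 blocked by run). Of 17 measured p53 targets, Sesn1, a stress-response regulator of growth signalling, rose with RA in WT cells (0.90, adjusted p = 0.0194), gave 0.62 with RA in KO cells (adjusted p = 0.432, 0.0188 blocked by run), and was lower in KO cells in vehicle (-0.62, adjusted p = 0.047) and in RA (-0.90, adjusted p = 0.00354). Aen, a nuclease induced by p53, was higher in KO cells in RA (0.67, adjusted p = 0.0186). Sesn1 went against most of its list. With RA in WT cells 15 of the 17 were below 0 (median -0.30), and between genotypes in RA 12 were above 0 (median 0.33). Blocked by run, 3 of the 17 fell and 1 rose with RA in WT cells. In KO against WT cells 2 were then higher and 1 lower in vehicle, and 6 and 1 in RA. Among the 3 that fell were Btg2 (-0.80, adjusted p = 0.0802, 0.00513 blocked by run) and Gadd45a (-0.69, adjusted p = 0.220, 0.0181 blocked by run). Over all genes above background, 282 fell and 317 rose with RA in WT cells blocked by run. Between genotypes 1000 were higher and 1395 lower in vehicle, and 1214 and 1339 in RA.

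Some embryonal carcinoma markers fell with RA in WT cells, as Myc did. Of 13, RA lowered 5 in WT cells, against 61 of the 10693 genes above background, and limma called 0 in KO cells (3 at an unadjusted p under 0.05). Blocked by run 1 rose in each genotype, which in KO cells was Alpl, an alkaline phosphatase (1.01, adjusted p = 0.229, 0.0135 blocked by run). In KO cells 0 of the 13 fell blocked by run, where Myc and Mycn did fall. Those that fell in WT cells were led by Tdgf1, a Nodal co-receptor (-1.78, adjusted p = 3.64e-06), Fgf4, a growth factor of the early embryo (-1.34, adjusted p = 0.000341), and Utf1, a chromatin factor of pluripotent cells (-1.53, adjusted p = 0.00119). For these 3 the RA change in KO minus that in WT was 1.31, 1.09 and 1.02, and passed only blocked by run (adjusted p = 0.00188, 0.0116 and 0.0116). In KO against WT cells 4 of the 13 were higher and 3 lower in vehicle (6 and 3 blocked by run), and 7 were higher and 3 lower in RA, where Myc was also higher. Mycn was not higher there, at -0.47 (adjusted p = 0.244). Over all genes above background 408 were higher and 721 lower in KO cells in vehicle, and 585 and 729 in RA. In RA Tdgf1 was higher by 2.29 (adjusted p = 4.28e-08) and Fgf4 by 2.07 (adjusted p = 8.73e-07), while Klf4, a pluripotency transcription factor, was lower (-1.44, adjusted p = 1.73e-05). The summed signal of the 13 was 131544 to 138266 in WT_vehicle, 99554 to 112628 in WT_RA, 143684 to 170535 in KO_vehicle and 140834 to 151921 in KO_RA, and their part in the Myc values was not tested. Of 8 measured housekeeping genes, limma called none with RA (1 in WT and 0 in KO cells at an unadjusted p under 0.05). B2m rose in WT cells blocked by run (0.82, adjusted p = 0.0543, 0.00177 blocked by run), and B2m and Gusb were lower in KO cells in both media.

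For each of the 9 genes, the probe sets most like its lead were found by Pearson's r over the 12 arrays, among 19132 to 19137 probe sets of 1 symbol above background. The arrays share their 4 groups, so r mostly orders genes by their group means and is given as a description. For Myc these were Nolc1 (0.945), Foxd3 (0.939), a transcription factor of the early embryo, and Odc1 (0.933). For Mycn they were Kpna6 (0.891), Pus3 (0.879) and Neurl2 (0.856), and for Ccnd1 they were Ppm1f (0.944), Plec (0.936) and Cad (0.927). Ccnd2 had the highest values of the 9, with Srgn (0.994), Emb (0.991) and Erdr1 (0.990); Srgn, a proteoglycan core protein, had mean signals of 14541 and 15768 in the WT groups and 451 and 448 in the KO groups. Ccnd3 was most like Degs1 (0.930), Foxh1 (0.907) and Pcbp4 (0.904). Ccne1 was most like Cpeb3 (0.939), Prpf4 (0.921) and Nova2 (0.914), and Ccne2 like Dpy19l1 (0.947), Creb1 (0.945) and Lactb2 (0.929). Cdkn1a was most like Gpaa1 (0.924), Nol9 (0.919) and Mapkapk3 (0.915), and Cdkn1b like Nrp1 (0.926), Iqcb1 (0.921) and Eid1 (0.919).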

How the data were processed

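RNA of F9 cells was hybridised to 12 Affymetrix arrays, 3 in each of 4 groups taken from the source labels; replicate numbers follow deposition order. Per the submitters' processing notes the authors used MAS5; the deposited values are signal intensity on a linear scale, and on every array their mean after trimming 2% at each end is 500. Other steps are not given in the sources used here. The deposited experiment files, of other content, record lot and times and served only to define batches; a fluidics run is the set of arrays that share a hybridization time.

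Of 45101 probe sets, 64 controls were left out. In the annotation, 34945 had 1 symbol, 932 several and 9160 none; a gene's lead is its brightest probe set by mean log2 signal. With limma 3.58.1 in R 4.3.3, log2(signal + 16) was fitted with lmFit and eBayes (intensity trend, 4 groups, 8 residual degrees of freedom, 6 with the run as a block). Benjamini-Hochberg adjustment ran over all 45037 probe sets in each of 5 contrasts, and the script was tested on simulated data. The text names all 9 genes, up to 3 called genes per list and contrast with the smallest adjusted p, and the 3 genes most like each member. The members, lists and motifs were chosen with earlier results of these data known. The fit was repeated with pseudocounts of 1 and 64, after quantile normalization or median centring, on probe sets above background, with no trend, with the run as a block, and without single arrays; the chip lot as a block was added after the data were seen. Arrays have no read depth, and their number limits the precision.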

Additional observations from a re-analysis of the deposited data

How the results depend on the processing

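The 9 genes were recounted under each alternative. For RA in WT cells, where 2 were called, centring each array on its median gave 1, a fit with no intensity trend 1, only probe sets above background 3, the run as a block 3 with or without KO_vehicle replicate 3, and leaving out single arrays 1 to 3. For RA in KO cells, with 0 called, the run as a block gave 2, the same without KO_vehicle replicate 3 gave 1, and leaving out arrays 0 to 1. For KO against WT in vehicle, with 2 called, centring gave 1, no trend 1, the chip lot as a block 1, and leaving out arrays 1 to 3. For KO against WT in RA, with 2 called, centring gave 1, no trend 1, the run as a block 3 with or without KO_vehicle replicate 3, and leaving out arrays 1 to 3. Alternatives not named for a comparison gave its main count. The calls of Myc with RA in WT cells and of Ccnd2 in both media stood under every alternative run. Ccnd1 with RA in WT cells, Ccnd3 between genotypes in vehicle and Myc between genotypes in RA lost their calls when arrays were centred and with no trend. Ccnd3 lost its call with the chip lot as a block as well. All WT_vehicle arrays were of lot 1, whereas KO_vehicle replicates 1 and 2 were of lot 2, so lot and genotype are partly mixed in that comparison.

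Over all probe sets, RA in WT cells gave 211 calls; centring gave 84, no trend 51, the run as a block 949, the same without KO_vehicle replicate 3 1161, and leaving out arrays 84 to 277. RA in KO cells gave 36; no trend gave 9, the run block 136, the same without KO_vehicle replicate 3 109, and leaving out arrays 13 to 55. The difference between the RA changes gave 0; a pseudocount of 64, centring, probe sets above background and the chip lot gave 1 each, the run block 22, the same without KO_vehicle replicate 3 2, and leaving out arrays 0 to 1. KO against WT in vehicle gave 1940; centring gave 1056, no trend 784, the run block 4235, the same without KO_vehicle replicate 3 3537, the chip lot 1211, and leaving out arrays 1126 to 2197. KO against WT in RA gave 2225; centring gave 1015, no trend 1031, the run block 4466, the same without KO_vehicle replicate 3 5180, and leaving out arrays 1164 to 2822. The cause of these shifts was not tested.

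Centring moved the median change of all probe sets from -0.11 to 0.14 for RA in KO cells, from -0.16 to 0.18 for the difference, from 0.17 to -0.04 for KO against WT in vehicle and from -0.05 to 0.08 in RA. Small changes that were not called turned sign under some alternatives, and the cause was not tested. Centring gave -0.072 for Ccnd2 and -0.076 for Ccne2 with RA in WT cells, 0.21 for Ccnd3, 0.10 for Ccne2 and 0.17 for Cdkn1a with RA in KO cells, 0.18 for Ccne2 and 0.087 for Cdkn1b in the difference, and 0.11 for Ccnd3 between genotypes in RA. The chip lot as a block gave -0.086 for Ccnd2 with RA in WT cells and 0.10 for Mycn between genotypes in vehicle. Quantile normalization gave -0.045 for Ccne2 with RA in WT cells. The run block without KO_vehicle replicate 3 gave 0.017 for Ccne1, 0.057 for Ccne2 and -0.070 for Cdkn1b with RA in KO cells, 0.037 for Ccne2 in the difference, and 0.030 for Ccnd1 between genotypes in vehicle. Leaving out single arrays gave, with RA in WT cells, -0.10 to 0.10 for Ccnd2 and -0.38 to 0.22 for Ccne2. With RA in KO cells it gave -0.059 to 0.28 for Ccnd2, -0.084 to 0.045 for Ccnd3, -0.21 to 0.033 for Cdkn1a and -0.13 to 0.31 for Cdkn1b. In the difference it gave -0.082 to 0.26 for Ccnd2 and -0.36 to 0.23 for Ccne2. Between genotypes it gave, in vehicle, -0.22 to 0.050 for Mycn, -0.28 to 0.0011 for Ccnd1 and -0.39 to 0.052 for Cdkn1b, and in RA, -0.062 to 0.067 for Ccnd3 and -0.43 to 0.069 for Ccne1. Where a probe set lies near the background level, its changes are less certain.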
